A study of Rattus norvegicus with 4 samples.

Results

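Glutamate nuclei that carried transcripts of the transcription factor genes Sim1 or Foxb1 were examined among single nuclei of the rat ventral tegmental area (VTA), the midbrain region best known for its dopamine neurons. The nuclei were chosen by their own transcript counts: a nucleus was a member if it held at least 2000 unique molecular identifiers (UMIs, single counted transcripts), at least 2 UMIs of Sim1 and Foxb1 together, at least 1 UMI of the glutamate transporter gene Slc17a6, and none of the GABA genes Gad1 and Slc32a1 or of the dopamine gene Th. By this rule 271 of 21606 deposited barcodes were members, 1.25% of all. The tissue came from experimentally naive Sprague-Dawley rats of 90 to 120 days, taken from coronal sections between -4.92 and -6.46 mm from bregma. There were 4 libraries, 2 of females and 2 of males, and each pooled 3 animals of 1 sex from 6 rats per sex. No animal was treated, so the only groups were the sexes. Frozen tissue gave nuclei that were sorted on a DNA dye and put into 10x Genomics 3′ libraries, and single animals within a pool cannot be told apart.

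Sim1 encodes a transcription factor of the basic helix-loop-helix PAS type that works as a dimer with Arnt2, and it is known for its part in the development of hypothalamic neurons. Foxb1 encodes a forkhead factor known as a marker of the mammillary body, the caudal part of the hypothalamus that lies just in front of and below the VTA. Mammillary neurons are mostly glutamatergic, use Slc17a6 to load vesicles, and send axons to the anterior thalamus and the tegmentum. Lmx1a and Lmx1b, by contrast, are LIM homeobox factors of dopamine and glutamate neurons of the ventral midbrain and of the subthalamic region.

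The label of these nuclei rests on 4 markers, Sim1, Foxb1, the neuropeptide gene Cartpt and the collagen gene Col19a1. The upstream sequences of Cartpt and of Nkx2-1, a homeobox gene of the ventral hypothalamus to which the results return, are shown because Cartpt named the class and Nkx2-1 was the regulator with the largest increase. They are the 250 bases before each annotated start in RefSeq (build GRCr8), on the minus strand at chr2:32991236-32991485 for Cartpt and chr6:79734868-79735117 for Nkx2-1. Capitals mark the cAMP response element TGACGTCA in Cartpt and ACGTG, the core of sites bound by basic helix-loop-helix PAS dimers, in Nkx2-1.
Cartpt: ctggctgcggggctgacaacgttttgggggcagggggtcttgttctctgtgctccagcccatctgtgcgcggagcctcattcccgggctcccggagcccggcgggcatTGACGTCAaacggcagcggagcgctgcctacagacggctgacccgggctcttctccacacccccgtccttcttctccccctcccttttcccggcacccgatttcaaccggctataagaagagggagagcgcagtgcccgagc
Nkx2-1: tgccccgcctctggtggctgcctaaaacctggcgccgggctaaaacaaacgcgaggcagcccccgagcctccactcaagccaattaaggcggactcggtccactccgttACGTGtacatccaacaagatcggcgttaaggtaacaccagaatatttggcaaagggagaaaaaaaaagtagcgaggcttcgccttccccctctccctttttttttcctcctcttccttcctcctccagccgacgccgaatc
Each sequence held 1 match when both strands were searched, and the 2 motifs do not overlap each other. TGACGTCA was present in 1.59% and ACGTG in 16.6% of the 33469 upstream sequences of the same length. A match is a description of these letters and not of binding.

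The members were unevenly spread over the libraries. Female 1 held 78 members of 5873 barcodes (1.33%), female 2 held 24 of 5150 (0.466%), male 1 held 77 of 3628 (2.12%) and male 2 held 92 of 6955 (1.32%). The Wilson 95% intervals were 1.07 to 1.65%, 0.313 to 0.693%, 1.70 to 2.64% and 1.08 to 1.62%, and they cover counting error only. Female 2 lay below the interval of each of the other libraries. These shares count all deposited barcodes, although a member needed at least 2000 UMIs. Of barcodes with at least 2000 UMIs, 2.24%, 0.602%, 2.48% and 1.95% were members in the same order. The intervals of those shares overlapped among female 1, male 1 and male 2, and female 2 was again lowest. Median depth was 9543, 9975, 11821 and 7395.5 UMIs per member in the same order, so the library with the fewest members was not the shallowest. Between 4 and 9 barcodes were shared by any pair of libraries, and none of them was a member in both.

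The comparison nuclei were other glutamate nuclei of the same libraries, with at least 2 UMIs of Slc17a6 and none of Sim1, Foxb1, Gad1, Slc32a1 or Th. There were 1023 of them (251, 176, 273 and 323 in the library order above), and 1007 held at least 2000 UMIs. Their median depth was 7884, 7979.5, 8917 and 6785 UMIs, below that of the members in every library. Gated glutamate nuclei are members plus comparison nuclei with at least 2000 UMIs. Members made up 24.1%, 12.1%, 22.3% and 22.4% of them in that order, so female 2 was lowest here too. The 2 gates differ, as a member needed 1 UMI of Slc17a6 and a comparison nucleus 2, which raises these shares. Of the 271 members, 195 held 2 or more. The 225 nuclei with 1 UMI of Sim1 and Foxb1 that met the other member criteria are in neither class.

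**Figure D1:**
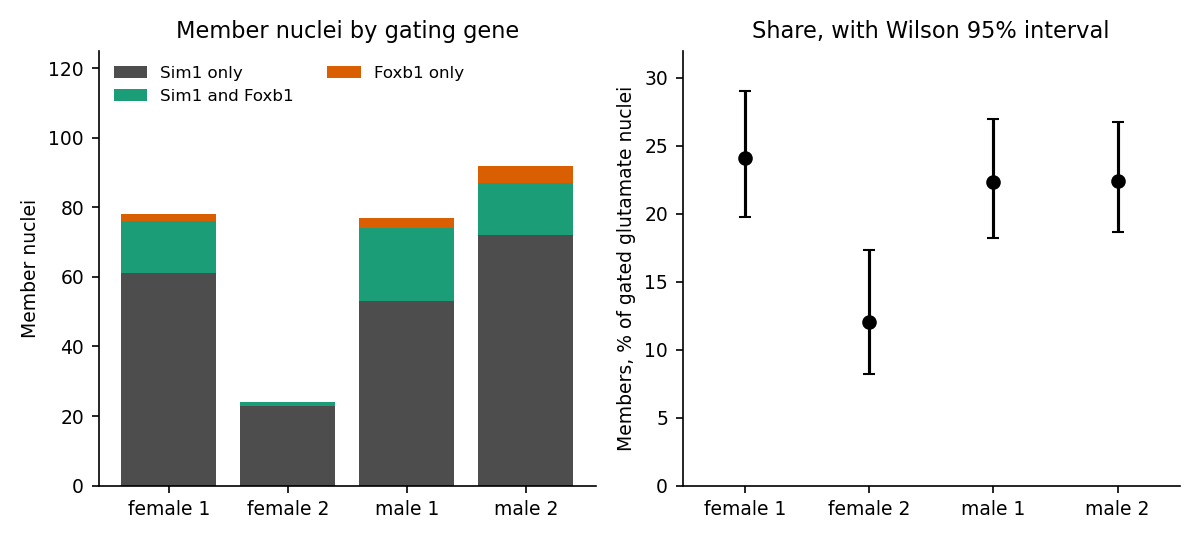
Member nuclei in each library, split by whether Sim1, Foxb1 or both were detected (left), and members as a percent of gated glutamate nuclei with Wilson 95% intervals (right). Female 2 has 24 members and a share of 12.1%, while the other 3 libraries lie between 22.3% and 24.1%.

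For both shares the ranges of the sexes overlapped. The member share of barcodes was 0.897% ± 0.610 in females and 1.72% ± 0.565 in males (SD, n = 2 libraries each), a difference of -0.826 percentage points (two-sided exact permutation test, p = 0.667). The share of gated glutamate nuclei was 18.1% ± 8.50 in females and 22.4% ± 0.0850 in males (SD, n = 2 each), a difference of -4.31 points (two-sided exact permutation test, p = 1). Without female 2 that difference was 1.70 points, in the other direction. With 2 libraries against 2 this test cannot give a p below 0.333.

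Sim1 was the gene that placed most nuclei in the class. Of the members, 209 held Sim1 only, 52 held both genes and 10 held Foxb1 only. Sim1 was detected in 261 members with 821 UMIs in all, and Foxb1 in 62 members with 85 UMIs. A member held 2 UMIs of Sim1 at the median and 17 at most, and 4 UMIs of Foxb1 at most. These values describe the choice of nuclei and are no finding.

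Foxb1 itself was unevenly found. It was detected in 17 members of female 1 (21.8%), 1 of female 2 (4.17%), 24 of male 1 (31.2%) and 20 of male 2 (21.7%). After thinning each nucleus to 2000 UMIs the shares were 5.72%, 0.701%, 8.15% and 7.14%. In nuclei gated as oligodendrocytes, which should lack the gene, Foxb1 was detected in 0.0490 to 0.493% per library at median depths of 2931 to 3273 UMIs. Members with Foxb1 alone numbered 2, 0, 3 and 5 per library, too few to test against members with Sim1 alone.

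The threshold of 2 UMIs fell in the middle of a continuous range. At the threshold were 129 members with exactly 2 UMIs of Sim1 and Foxb1 together, above it were 57 with 3 and 85 with 4 or more, and just below it were 225 nuclei with 1 UMI that met the other criteria. The nuclei just below carried 252 CPM of Cartpt, 303 of Col19a1 and 38.8 of Nkx2-1 over all libraries, where CPM is UMIs of the gene per 1000000 UMIs of the summed nuclei. Members with exactly 2 carried 350, 419 and 39.4 CPM of the same genes, and members with 3 or more carried 221, 380 and 41.3 CPM. Lmx1a was at 22.8 CPM just below the threshold, 1.71 CPM at it and 0 above it.

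Other nuclei met the Sim1 and Foxb1 threshold but failed another criterion. Of 395 such barcodes with at least 2000 UMIs, 94 had no Slc17a6 UMI and 30 had a UMI of Gad1, Slc32a1 or Th. Outside these 395, 1 further barcode with 2 or more Sim1 and Foxb1 UMIs had fewer than 2000 UMIs in all. Of the 94 nuclei without Slc17a6, 58 came from male 2, where their median depth was 4770.5 UMIs against 7395.5 in the members. They carried 284 CPM of Cartpt, 474 of Col19a1, 34.4 of Nkx2-1 and 0 of Lmx1a, where the members' levels per library ranged from 108 to 396, 123 to 513, 11.5 to 50.2 and 0 to 2.61 CPM.

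The 2 markers that the gate did not use, Cartpt and Col19a1, were described without a test because the class was named from them. Cartpt encodes the precursor of CART peptides, and Col19a1 a nonfibrillar collagen. In the same library order Cartpt was at 265, 108, 396 and 193 CPM in members and at 111, 51.1, 102 and 93.5 CPM in comparison nuclei. Col19a1 was at 513, 123, 429 and 333 CPM in members and at 108, 56.4, 79.8 and 95.5 CPM in comparison nuclei. Both genes were higher in members of each library, and member and comparison ranges overlapped for Cartpt but not for Col19a1.

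The markers did not hold equally in every library. A Cartpt UMI was found in 51 of 78 members of female 1, 41 of 77 of male 1 and 34 of 92 of male 2, but in 2 of 24 of female 2. Thinned to 2000 UMIs per nucleus, these shares were 36.8%, 35.4%, 21.3% and 7.38%. Those 2 nuclei held 8 and 20 UMIs and gave the whole Cartpt level of that library. Col19a1 was detected in 60 of 78, 13 of 24, 56 of 77 and 44 of 92 members. In the oligodendrocyte gate Cartpt was detected in 0.589 to 2.98% and Col19a1 in 1.42 to 3.66% of nuclei, at median depths of 2931 to 3273 UMIs. For female 2 the label therefore rests on Sim1 and on a low Col19a1 level, and these nuclei are called Sim1/Foxb1 nuclei below.

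**Figure D2:**
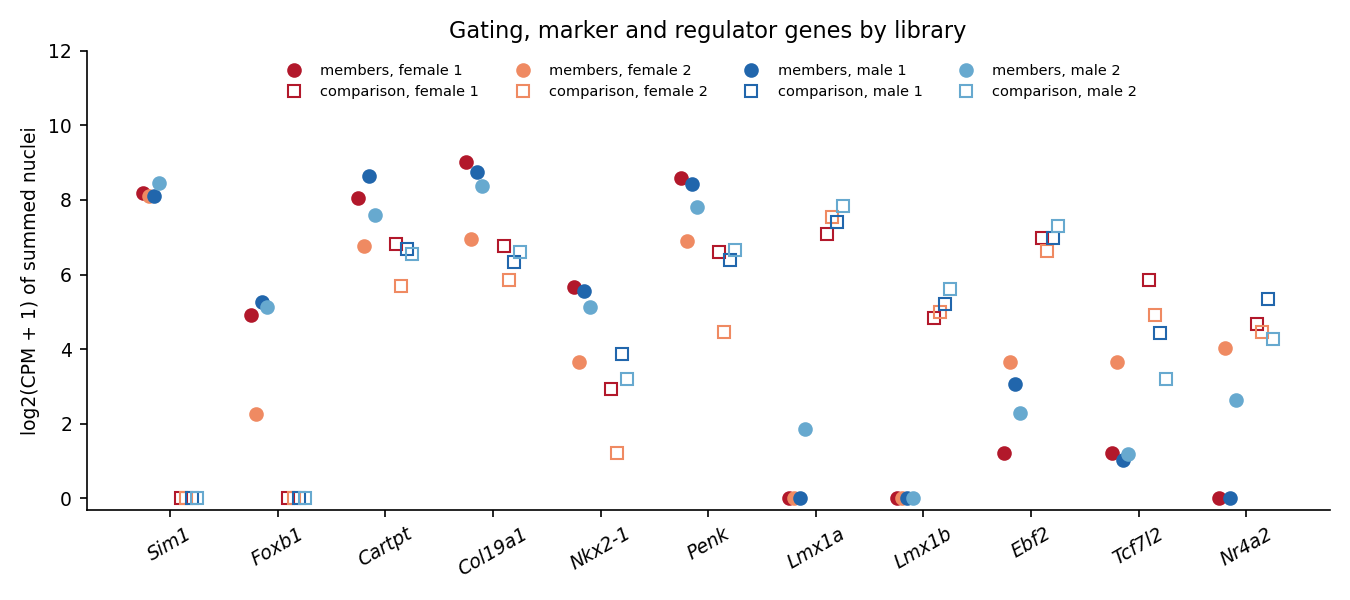
Level of 11 genes as log2(CPM + 1) of summed nuclei in each library, for members (filled circles) and comparison glutamate nuclei (open squares). Sim1 and Foxb1 are at 0 in comparison nuclei by the rule, Lmx1b is at 0 in all member sums, and Nkx2-1 lies between 11.5 and 50.2 CPM in members.

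To ask how the Sim1/Foxb1 nuclei differed from other glutamate nuclei in genes that the gate did not use, UMIs were summed per library and class and compared within libraries. The members had higher levels of the hypothalamic regulator gene Nkx2-1 and of the opioid peptide gene Penk, and almost no transcripts of Lmx1a, Lmx1b and Ebf2. Glutamate receptor genes went both ways, with 4 called higher and 2 lower of 24 glutamate genes tested. In edgeR's quasi-likelihood test with the library as a block, 492 of 10164 genes were called at a Benjamini-Hochberg adjusted p under 0.05, 4.84% of those tested. Of these, 273 were higher (2.69%) and 219 lower (2.15%) in members, and 1660 had an unadjusted p under 0.05. The member and comparison ranges over the 4 libraries did not overlap for 743 genes (7.31%).

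The number of calls depended on which libraries were used. Without female 2 there were 920 calls (502 higher, 418 lower), and without male 1 there were 119 (68 higher, 51 lower), all 119 among the 492. Of 55 named genes tested, 25 lost their call without male 1, among them Wnt16, Synpo2, Grm7, Oprm1, Ntn1, Sema5a and Gad2 besides those given at their values below. Female 2 had the lowest member level of the 4 libraries for 213 of the 273 genes called higher (78.0%), against 30.8% of all genes tested.

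**Figure D3:**
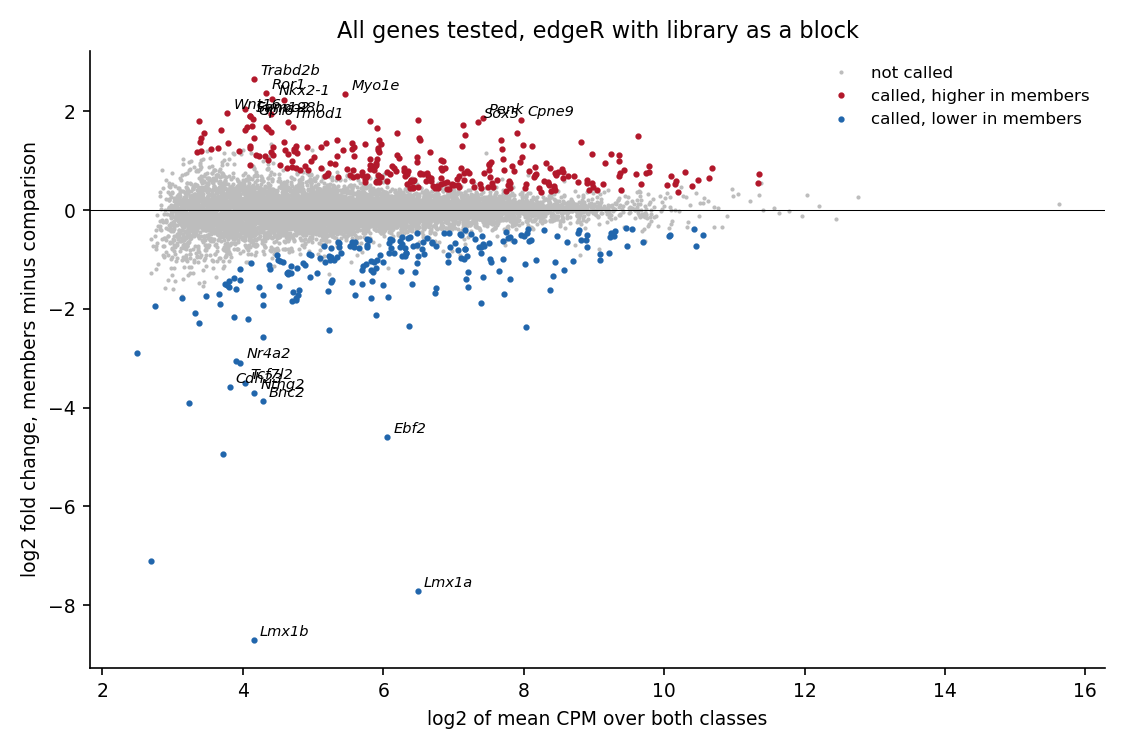
Log2 fold change of members over comparison nuclei against the log2 of the mean CPM over both classes, for the 10164 genes tested. Red points are the 273 genes called higher and blue points the 219 called lower, and the largest changes that met the naming rule are labelled.

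The gene lists below were chosen with earlier results of these data known, and 4.84% of all genes tested were called. In the list of regulators of the mammillary and posterior hypothalamic region, 10 of 26 listed genes were tested. Of these, 2, among them Nkx2-1, were called higher and 3, Lmx1a, Lmx1b and Nr4a2, lower. The list also holds genes known from the midbrain, and the 3 lower genes are among them. The median log2 difference was 0.04, against -0.003 over all genes. With no filter on low counts it was -1.01 over 23 genes of the list, with 2 called higher and 5 lower. Nkx2-1 encodes a homeobox factor that patterns the ventral hypothalamus. In the order female 1, female 2, male 1, male 2, its member level was 50.2, 11.5, 46.0 and 33.9 CPM, and its comparison level 6.63, 1.33, 13.7 and 8.16 CPM. The ranges overlapped through female 2, where all 3 member UMIs lay in 1 nucleus. The log2 difference was 2.26 ± 0.26 (SE, 4 libraries, edgeR adjusted p = 0.000238).

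Nkx2-1 was not particular to the members, since the nuclei just below the Sim1 and Foxb1 threshold and those without Slc17a6 carried 38.8 and 34.4 CPM, as given above. It was at 0.780 CPM in nuclei gated for GABA genes, 0 in the dopamine gate and 1.31 CPM in the oligodendrocyte gate. Within the comparison nuclei it was at 1.11 CPM where Lmx1a or Lmx1b was detected and at 15.9 CPM where neither was.

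Lmx1a and Lmx1b, LIM homeobox factors of the ventral midbrain and caudal hypothalamus, were nearly absent from the members. Lmx1b had 0 UMIs in all 4 member sums and stood at 27.5, 31.2, 35.9 and 47.8 CPM in comparison nuclei. Against a floor of 3 counts over the member group it was at least 33.2-fold lower in members (edgeR adjusted p = 9.9e-05). Lmx1a had 2 UMIs, both in male 2, against 134, 187, 168 and 227 CPM in comparison nuclei, a 246-fold difference in pooled level with an exact 95% counting interval of 68.0 to 2034 (edgeR adjusted p = 2.73e-08). In the dopamine gate Lmx1a was at 192 CPM.

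Nr4a2, a nuclear receptor of midbrain neurons, was at 0, 15.4, 0 and 5.22 CPM in members and at 24.6, 21.2, 39.9 and 18.4 CPM in comparison nuclei. The ranges did not overlap, and the log2 difference was -3.09 ± 0.61 (SE, edgeR adjusted p = 0.00877), a call that was lost without male 1 and in DESeq2. The LIM homeobox gene Lhx1, also known from the mammillary region, was at 21.1, 0, 17.8 and 10.4 CPM in members and 8.53 to 18.6 CPM in comparison nuclei (log2 difference 0.57 ± 0.43, edgeR adjusted p = 0.596). Arnt2, the dimer partner of Sim1, was at 187, 330, 157 and 205 CPM in members and 213 to 267 CPM in comparison nuclei (log2 difference -0.14 ± 0.12, edgeR adjusted p = 0.642). The hypothalamic regulator genes Otp, Nkx2-4 and Skor1 had 0 UMIs in both classes.

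Of 9 midbrain and brainstem regulators tested (27 listed), 0 were called higher and 3 lower, namely Ebf2, Tcf7l2 and Ebf1 (median log2 difference -1.06). The list was less one-sided in other settings. Without female 2 it had 2 higher and 4 lower calls. After thinning to 2000 UMIs it had 2 higher and 2 lower calls of 6 tested (median log2 difference -0.23). Ebf2, an early B-cell factor gene of migrating and differentiating neurons, was at 1.32, 11.5, 7.31 and 3.92 CPM in members and at 126, 98.9, 126 and 157 CPM in comparison nuclei. The ranges did not overlap (log2 difference -4.60 ± 0.26, edgeR adjusted p = 6.87e-07). Tcf7l2, a Wnt pathway factor abundant in thalamus, was at 1.32, 11.5, 1.04 and 1.31 CPM in members and 8.16 to 56.9 CPM in comparison nuclei (log2 difference -3.51 ± 0.48, edgeR adjusted p = 0.000742). Its 3 UMIs in members of female 2 lay in 1 nucleus.

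For Ebf1, another early B-cell factor gene, female 2 stood apart. The gene was at 99.0, 449, 139 and 66.6 CPM in members and at 573, 460, 363 and 510 CPM in comparison nuclei (log2 difference -1.62 ± 0.32, edgeR adjusted p = 0.00803). In female 2 alone the 2 classes were nearly level, and the call was lost without male 1, without male 2 and in DESeq2.

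The comparison nuclei were themselves mixed, since 488 of the 1023 held a UMI of Lmx1a or Lmx1b. In a fit added after seeing the data, with the other 535 as the comparison, 203 genes were called, of which 168 were among the 492. Nkx2-1, Penk, Ebf2 and Calb2 stayed called, and Gpr6, Wnt16, Calb1, Trpc5 and Rxfp1 did not.

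The 12 largest increases under the naming rule were Trabd2b, Ror1, Myo1e, Nkx2-1, Wnt16, Fam198b, Synpo2, Penk, Gpr6, Cpne9, Sox5 and Tmod1, with log2 differences from 2.66 to 1.79. Female 2 had the lowest member level for all 12. That members were higher in each library was a condition of the naming rule and is no result. Myo1e, a gene for an unconventional myosin, was at 161, 23.1, 79.4 and 28.7 CPM in members and at 28.0, 6.64, 13.3 and 10.6 CPM in comparison nuclei (log2 difference 2.35 ± 0.21, edgeR adjusted p = 3.55e-05). The ranges overlapped, as members of female 2 lay below comparison nuclei of female 1.

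Of the remaining increases, Ror1, a receptor tyrosine kinase gene for Wnt ligands, stood at 43.6, 3.84, 20.9 and 65.3 CPM in members and 2.65 to 9.95 CPM in comparison nuclei (log2 difference 2.37 ± 0.27, edgeR adjusted p = 0.000205). The ligand gene Wnt16 was at 31.7, 11.5, 29.3 and 13.1 CPM in members and 5.54 to 7.30 CPM in comparison nuclei, with no overlap (log2 difference 1.97 ± 0.33, edgeR adjusted p = 0.00281). Trabd2b, a gene for a membrane protease that cleaves Wnt proteins, was at 60.7, 3.84, 46.0 and 10.4 CPM in members and 2.22 to 11.8 CPM in comparison nuclei. In female 2 the member level of Ror1 and of Trabd2b came from 1 UMI each.

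Sox5, a transcription factor gene of neuronal specification, was at 374, 61.5, 294 and 271 CPM in members and 55.8 to 91.7 CPM in comparison nuclei (log2 difference 1.79 ± 0.20, edgeR adjusted p = 0.000143). Cpne9, a gene for a calcium-dependent lipid-binding copine, was at 515, 84.5, 549 and 407 CPM in members and 61.7 to 135 CPM in comparison nuclei (log2 difference 1.82 ± 0.17, edgeR adjusted p = 6.99e-05). In both genes the 3 other libraries stood well above all comparison sums, and female 2 lay within the comparison range. The remaining decreases under the rule were the zinc finger gene Bnc2, the netrin-G gene Ntng2 and the cadherin gene Cdh23, with log2 differences of -3.86, -3.70 and -3.58 and 0 to 7.68 CPM in members.

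Of 7 neuropeptide genes tested (27 listed), Penk was called higher and none lower (median log2 difference 0.53). The sign of that median depended on the setting. It was -0.08 without female 2, with 3 genes called higher, and -0.22 after thinning to 2000 UMIs. With no filter on low counts it was -0.42 over 24 genes, with 4 called higher and 2 lower. Penk encodes the precursor of enkephalins. It was at 383, 119, 343 and 222 CPM in members and at 97.1, 21.2, 82.8 and 99.6 CPM in comparison nuclei. The ranges did not overlap, and the log2 difference was 1.87 ± 0.16 (SE, edgeR adjusted p = 3.12e-05). A Penk UMI was found in 49 of 78, 5 of 24, 43 of 77 and 37 of 92 members, against 0.539 to 2.17% of nuclei in the shallower oligodendrocyte gate, and the call held in all 14 alternatives.

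The other peptide genes tested did not pass. Cck, for cholecystokinin, was at 121, 42.3, 144 and 103 CPM in members and 52.4 to 101 CPM in comparison nuclei (log2 difference 0.53 ± 0.16, edgeR adjusted p = 0.0894). Tac1, for substance P, was at 46.2, 161, 235 and 295 CPM in members and 219 to 301 CPM in comparison nuclei (log2 difference -0.59 ± 0.24, edgeR adjusted p = 0.238). Both genes varied more between members of different libraries than between the 2 class means. Tac3 had 0 UMIs in both classes, and Gal, Npy and Calcb had 0 in members.

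Of 18 neuropeptide and hormone receptor genes tested (38 listed), 0 were called higher and 3 lower, the thyrotropin-releasing hormone receptor gene Trhr, the relaxin receptor gene Rxfp1 and the mu opioid receptor gene Oprm1 (median log2 difference -0.13). Trhr was at 6.60, 19.2, 13.6 and 14.4 CPM in members and 37.8 to 45.5 CPM in comparison nuclei (log2 difference -1.71 ± 0.24, edgeR adjusted p = 0.000847). Rxfp1 was at 9.24, 11.5, 1.04 and 27.4 CPM in members and 37.8 to 93.3 CPM in comparison nuclei (log2 difference -2.43 ± 0.37, edgeR adjusted p = 0.00164). Oprm1 was at 32.6 to 37.0 CPM in members and 52.1 to 71.0 CPM in comparison nuclei (log2 difference -0.75 ± 0.16, edgeR adjusted p = 0.0145). For all 3 genes the ranges did not overlap. The orexin receptor gene Hcrtr2 was at 99.9 to 143 CPM in members and 110 to 118 CPM in comparison nuclei (edgeR adjusted p = 0.700).

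Of 24 glutamate transport and receptor genes tested (28 listed), 4 were called higher and 2 lower (median log2 difference -0.01). The metabotropic receptor genes Grm2 and Grm7 and the NMDA receptor subunit gene Grin2a were among the higher ones. Grm2, an autoreceptor on glutamate terminals, was at 100, 11.5, 134 and 103 CPM in members and at 37.0, 17.9, 49.9 and 35.1 CPM in comparison nuclei (log2 difference 1.42 ± 0.17, edgeR adjusted p = 0.000303). It was lower in members than in comparison nuclei of female 2, the reverse of the other 3 libraries.

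Grin2a was at 119 to 166 CPM in members and 71.7 to 89.4 CPM in comparison nuclei (log2 difference 0.85 ± 0.11, edgeR adjusted p = 0.000455). Gria3, an AMPA receptor subunit gene, was lower in members, at 218, 303, 278 and 278 CPM in members and 528 to 629 CPM in comparison nuclei (log2 difference -1.03 ± 0.11, edgeR adjusted p = 9.9e-05).

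Of 10 calcium-binding protein genes tested, Calb1 (calbindin) and Hpca were called higher and Calb2 (calretinin), Hpcal1 and Necab1 lower (median log2 difference -0.09). Calb1 was at 81.8, 19.2, 115 and 90.0 CPM in members and at 52.1, 11.3, 55.8 and 49.4 CPM in comparison nuclei. Each library was higher in members (log2 difference 0.92 ± 0.13, edgeR adjusted p = 0.00106). Calb2 moved the other way, at 30.4, 38.4, 41.8 and 20.9 CPM in members and 86.9 to 107 CPM in comparison nuclei, with no overlap (log2 difference -1.52 ± 0.17, edgeR adjusted p = 0.000149). Without male 1 the list had 0 higher and 1 lower calls.

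The axon guidance list had the most calls of the lists on biology, 6 higher and 9 lower of 24 tested (26 listed, median log2 difference 0.03). That is 62.5% of the list, against 4.84% of all genes tested, in a list chosen with earlier results of these data known. The ephrin receptor genes Epha4, Epha7 and Ephb1, the netrin receptor gene Unc5b, the semaphorin co-receptor gene Nrp1 and the ligand gene Slit2 were higher. Epha4 was at 267, 223, 256 and 197 CPM in members and 111 to 144 CPM in comparison nuclei (log2 difference 0.94 ± 0.10, edgeR adjusted p = 0.000136). The ligand genes Sema3a, Sema3c, Sema3e, Sema5a, Ntn1 and Slit3 and the receptor genes Unc5d, Epha3 and Epha5 were lower.

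Among the guidance ligands, the repellent gene Sema3a had 3 UMIs in members and 13.3 to 20.3 CPM in comparison nuclei, a 16.6-fold difference in pooled level with an exact 95% counting interval of 5.57 to 81.2 (edgeR adjusted p = 0.000538). Ntn1, for netrin-1, was at 26.4, 7.68, 9.40 and 9.14 CPM in members and 33.8 to 53.5 CPM in comparison nuclei (log2 difference -1.61 ± 0.28, edgeR adjusted p = 0.00410), and 10 of its 20 member UMIs in female 1 lay in 1 nucleus. Dcc, a netrin receptor gene, was at 968 to 1017 CPM in members and was not called (log2 difference 0.03, edgeR adjusted p = 0.938). Without male 1 the list had 5 higher and 3 lower calls.

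Of 18 synaptic adhesion and organiser genes tested (24 listed), Cntn4 was called higher and Cntnap4, Cbln4, Cbln1, C1ql1 and Nxph1 lower (median log2 difference -0.24). In female 2, C1ql1 and Cbln1 were higher in members, at 138 against 126 CPM and 19.2 against 15.3 CPM in comparison nuclei. The calls of C1ql1 and Cbln1 were each lost in 8 alternatives. Cntn4, a contactin gene, was at 1148, 872, 1034 and 1353 CPM in members and 522 to 758 CPM in comparison nuclei (log2 difference 0.78 ± 0.11, edgeR adjusted p = 0.00119). Cbln4, for a cerebellin that bridges synapses, was at 3.84 to 7.92 CPM in members and 15.3 to 24.8 CPM in comparison nuclei (log2 difference -1.52 ± 0.29, edgeR adjusted p = 0.00780). Without male 1 none of these genes was called by the edgeR test.

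Of 31 excitability channel genes tested (33 listed), 2 were called higher, among them the potassium channel gene Kcnq5, and 2 lower, Trpc5 and Cacna1e (median log2 difference 0.08). Trpc5, for a cation channel, was at 55.4, 292, 72.1 and 112 CPM in members and 184 to 314 CPM in comparison nuclei (log2 difference -1.05 ± 0.20, edgeR adjusted p = 0.00706). Female 2 again had the highest member level, near that of its comparison nuclei. Without male 1 none of the 4 was called. None of the 7 collagen genes tested beside Col19a1 was called by edgeR, with a median log2 difference of -0.45.

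**Figure D4:**
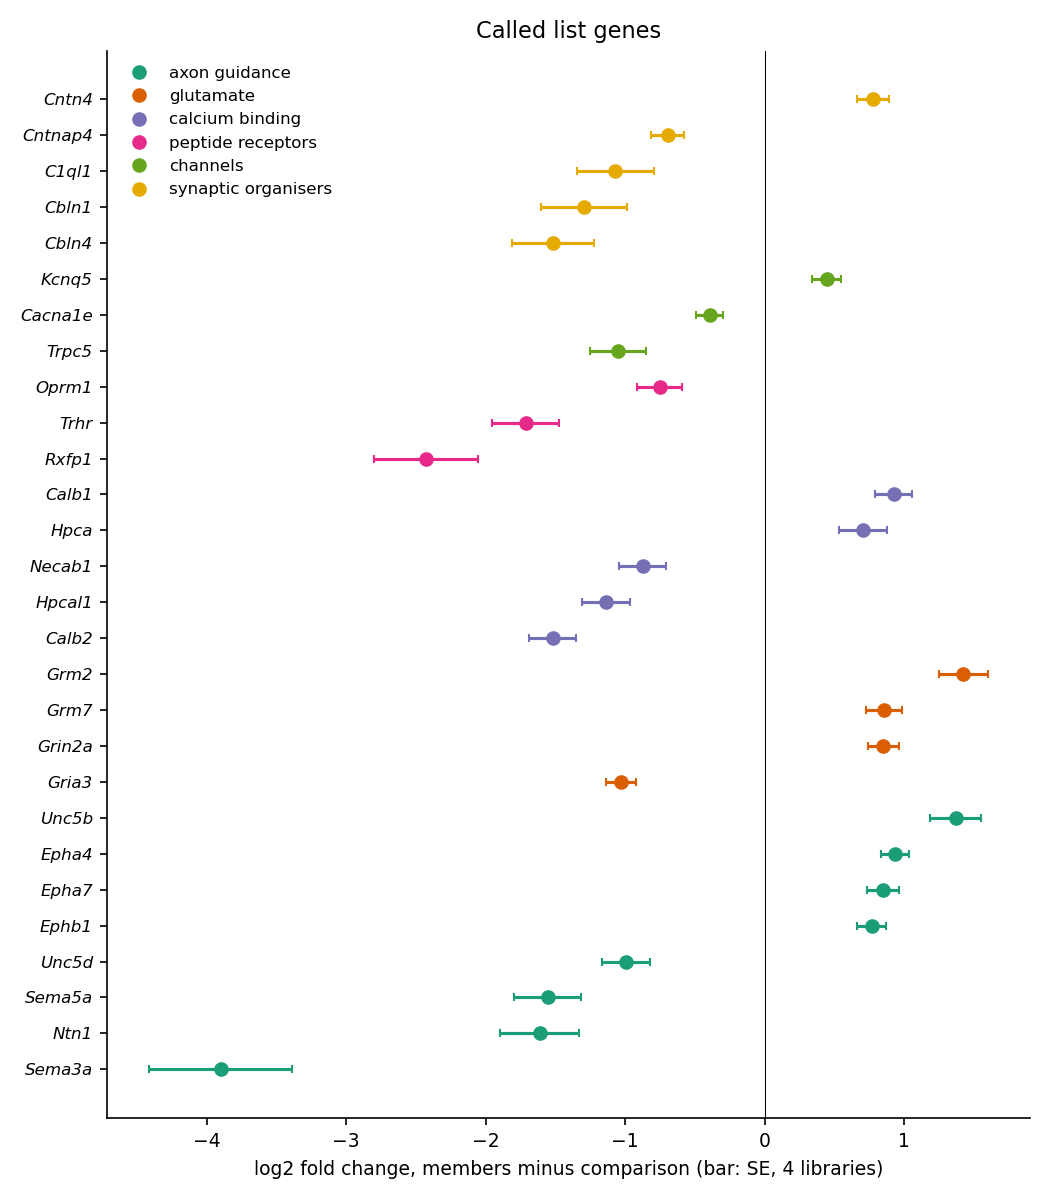
Log2 fold changes of members over comparison nuclei for called genes named from 6 lists, with SE over 4 libraries. The metabotropic glutamate receptor and ephrin receptor genes shown lie to the right of 0, and Sema3a lies farthest to the left at -3.90, a fitted value that rests on 3 member UMIs. The ephrin receptor genes Epha3 and Epha5, called lower, were not among the named genes and are not shown.

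Genes of other transmitters were low. Of the 5 tested (16 listed), 2 were called lower, among them Gad2, and none higher (median log2 difference -0.71). Gad2, the second glutamate decarboxylase gene, was at 5.28, 7.68, 13.6 and 2.61 CPM in members and 18.5 to 24.4 CPM in comparison nuclei (log2 difference -1.43 ± 0.34, edgeR adjusted p = 0.0247). The gate had removed nuclei with Gad1 or Slc32a1 from both classes. Without male 1 none of the 5 was called by edgeR. The serotonin gene Fev and the acetylcholine gene Slc18a3 had 0 UMIs in both classes, and Dbh had 0 in members.

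Markers of other cells were measured beside these results. The 7 astrocyte markers summed to 254 to 553 CPM in members and 167 to 200 CPM in comparison nuclei. Of the 3 tested, 2 were called higher, Rorb and Slc4a4, and the source of their transcripts was not tested. Gfap, Aqp4, Gja1 and Aldh1l1 were each at 15.4 CPM or less in every member sum. The 7 oligodendrocyte markers summed to 80.5 to 365 CPM in members and 168 to 301 CPM in comparison nuclei, against 7779 to 10370 CPM in nuclei gated as oligodendrocytes. The precursor markers summed to 31.3 to 84.6 CPM in members and 46.5 to 65.7 CPM in comparison nuclei, and the vascular markers to 0 to 3.13 and 0.948 to 13.1 CPM. The microglia markers reached 46.2 CPM in members of female 1, where 12 of 19 Csf1r UMIs lay in 1 nucleus, and 2.09 to 5.22 CPM in the other libraries. The 5 neuron markers summed to 3815 to 5917 CPM in members and 3679 to 4116 CPM in comparison nuclei, with Syt1 and Snap25 called higher.

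Nuclei whose glial and vascular markers made up at least 0.1% of UMIs were 19.5 to 23.9% of members and 8.06 to 14.3% of comparison nuclei. The markers counted for this cut included Rorb and Slc4a4, which were called higher in members. With the nuclei over the cut left out, 363 genes were called, 337 of them among the 492. Hpca and C1ql1 were among the named genes whose calls were lost. The part of glial transcripts in the other results was not tested.

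The members were not uniform among themselves. A Cartpt UMI was found in 128 of them and in 143 none, a split made after the values were seen and given here with no test. The median depth was 9827.5 UMIs with Cartpt and 9210 without. Of the 128 nuclei with Cartpt, 49 held Foxb1 (38.3%), 112 held Col19a1 (87.5%) and 92 held Cck (71.9%). Of the 143 without, 13 held Foxb1 (9.09%), 61 held Col19a1 (42.7%) and 27 held Cck (18.9%).

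In members with Cartpt, Foxb1 was at 40.2, 62.9 and 54.6 CPM in female 1, male 1 and male 2, and in members without at 7.67, 8.92 and 21.1 CPM. Nkx2-1 was at 62.4, 55.0 and 54.6 CPM with Cartpt and at 26.9, 35.7 and 21.1 CPM without. Grm2 was at 135, 222 and 191 CPM with Cartpt and at 34.5, 33.4 and 48.6 CPM without. For Nkx2-1 and Grm2 the 3 library sums with Cartpt all lay above the 3 without. The Foxb1 values lay the same way, but Foxb1 was used to choose the nuclei, so they are a description of that choice. Female 2, with 2 Cartpt nuclei, is left out of these values.

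Some other transcripts were higher on the other side of the split. Tac1 was at 20.1, 55.0 and 13.6 CPM with Cartpt and at 95.9, 439 and 469 CPM without. A Tac1 UMI was found in 15 of the 128 nuclei with Cartpt (11.7%) and in 44 of the 143 without (30.8%). Of the member UMIs of Tac1, 1 nucleus held 55 of 225 in male 1 and 68 of 226 in male 2. Trpc5 was at 12.1, 31.5 and 3.41 CPM with Cartpt and at 138, 118 and 180 CPM without. Sst, for somatostatin, had 0 UMIs in nuclei with Cartpt and 76 UMIs in those without, 53.3 CPM over all 4 libraries. Few nuclei carried these UMIs, as 1 nucleus held 7 of 11 in female 1, 8 of 10 in male 1 and 18 of 25 in male 2, and 30 came from female 2. Calb1 was higher with Cartpt (134 against 49.1 CPM over all libraries) and Calb2 without (10.6 against 52.6 CPM). In male 2 a Calb2 UMI was found in about equal shares, 11.8% of nuclei with Cartpt and 12.1% without.

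Penk followed the split less. It was at 378, 468 and 188 CPM with Cartpt and at 391, 201 and 243 CPM without, higher with Cartpt in male 1 alone of these 3. Its ranges overlapped between the 2 kinds of nuclei.

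**Figure D5:**
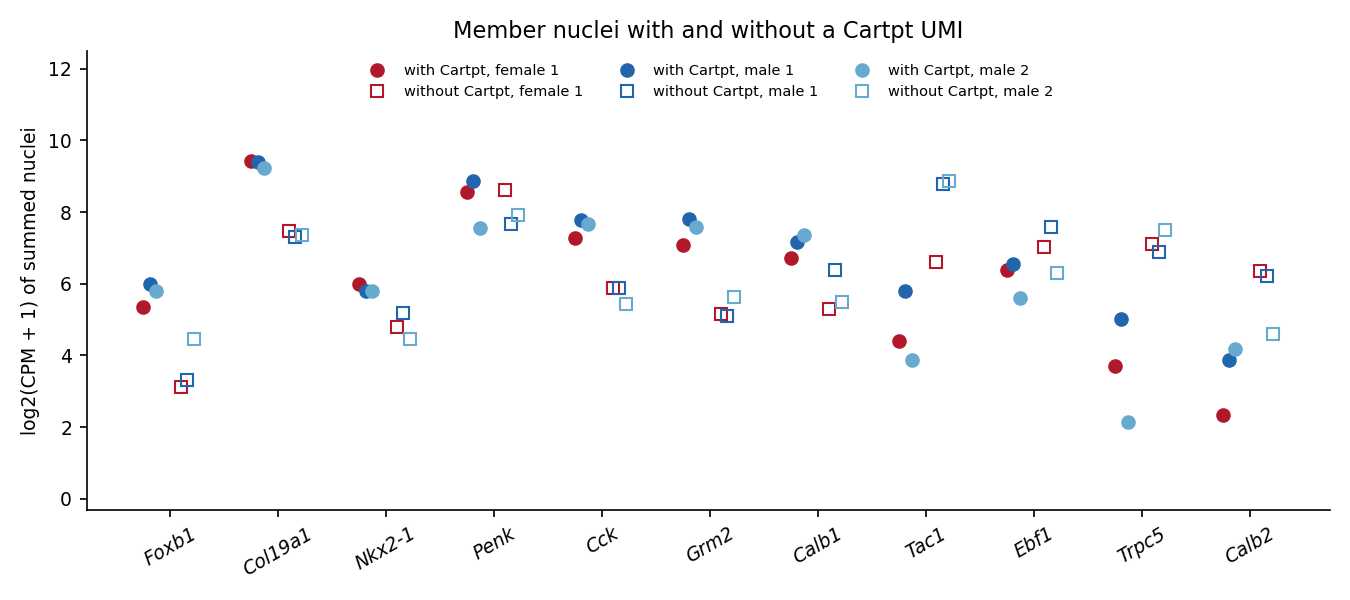
Levels of 11 genes as log2(CPM + 1) in member nuclei with a Cartpt UMI (filled circles) and without one (open squares) in 3 libraries, female 2 being left out because it had 2 nuclei with Cartpt. Foxb1, Col19a1, Cck, Grm2 and Calb1 are higher beside Cartpt in each library, and Tac1, Trpc5 and Calb2 are lower, with a small difference for Calb2 in male 2.

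In female 2, 22 of the 24 members lacked Cartpt. Its member sum had the lowest Foxb1, Cartpt, Col19a1, Nkx2-1, Penk, Cck, Grm2 and Calb1 and the highest Ebf1, Trpc5 and Sst of the 4 libraries. Tac1 and Calb2, at 161 and 38.4 CPM there, were not highest in female 2, although both were higher without Cartpt in the other 3 libraries. For Calb2 in male 2 that difference was small. Sst was at 115 CPM in female 2, from 8 nuclei, against 10.4 to 32.6 CPM in the other libraries. Meis2 was at 46.1 CPM in female 2, but all 12 of its UMIs came from 1 nucleus.

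The last comparison asked whether the sexes differed within the Sim1/Foxb1 nuclei. In edgeR's quasi-likelihood test over the 4 member sums, 4 of 9064 genes were called (0.0441%), all lower in females, and 274 had an unadjusted p under 0.05. The 4 were AC241873.1, Kdm5d, Eif2s3y and Ddx3. Kdm5d, a histone demethylase gene, stood at 1.32 and 3.84 CPM in the female pools and at 115 and 99.2 CPM in the male pools. Eif2s3y, for a translation initiation factor subunit, had 0 UMIs in both females and was at 89.9 and 102 CPM in the males. Both of these genes are known as Y-linked, and no library went against its label.

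No other gene was called between the sexes by edgeR. Leaving aside the clone-type symbol AABR07039356.2 (edgeR adjusted p = 0.0591), the next gene was Pde11a, a phosphodiesterase gene named here after its values were seen. Its level was 13.2 and 15.4 CPM in the female pools against 67.9 and 80.9 CPM in the male pools (log2 difference -2.42 ± 0.34, edgeR adjusted p = 0.126). Adcyap1, for the peptide PACAP, stood at 43.6 and 42.3 CPM in the female pools against 102 and 96.6 CPM in the male pools (log2 difference -1.22 ± 0.24, edgeR adjusted p = 0.955). With 1 library left out the sex calls ranged from 6 to 338, and 338 came without female 1, when female 2 alone stood for the females.

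Whether the difference between members and comparison nuclei itself differed by sex was tested as an interaction. In edgeR 0 of 10164 genes were called (0%), with 344 at an unadjusted p under 0.05, and DESeq2 called 0 with 37. The gene with the lowest p was Grm3, a metabotropic glutamate receptor gene (edgeR adjusted p = 0.338). It was at 226 and 488 CPM in members of the female pools and 46.0 and 104 CPM in those of the male pools. In comparison nuclei it was at 209 and 268 CPM in the female pools and 188 and 218 CPM in the male pools. The oligodendrocyte markers in members summed to 282 and 365 CPM in the female pools and 80.5 and 176 CPM in the male pools, and a link to Grm3 was not tested. On simulated counts the interaction test recovered 1.08% of genes with a log2 difference of 1 and 50.5% of those with 2, and 6.78% of its calls were false. The test of sex within members recovered 22.5% and 93.7% of genes with those differences. Without female 1 there were 152 calls, and without female 2 there were 46.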

How the data were processed

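Each of the 4 libraries was deposited as a matrix of whole-number UMI counts, not normalized per the file headers, over 32883 genes. Cell Ranger and the rn6 build are named in the submitters' processing notes, and the headers give software version 3.0.2. Members and comparison nuclei were gated on raw counts. The gate and the gene lists were chosen with earlier results of these data known. Doublets were not called, and no free RNA was removed. The libraries held 19714338 to 25824289 UMIs, and the member sums 260297 to 957117.

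For each library, the UMIs of all members and of all comparison nuclei were added up, and edgeR 4.0.16 in R 4.3.3 was fitted to the sums (TMM, filterByExpr, Benjamini-Hochberg). The gating genes, Cartpt and Col19a1 stayed out of the test. SE was derived from the fold change and the F statistic. Library was the block because both sums of a library come from the same pooled animals. An alternative fit used DESeq2 1.42.0. Member shares were set against each other by exact permutation over libraries. The SE and p-values measure spread between pools of 3 animals. Thinned shares are expected values at 2000 UMIs. For values of 0 a floor of 3 counts was used.

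Named genes were the gating and marker genes, the 12 largest increases and 8 largest decreases called at 20 CPM or more in the higher class and with 1 direction in all libraries (clone-type symbols left out), up to 4 called genes per direction and list, and up to 5 per sex test. Other list members are named as called or as examples after their values were seen. On simulated counts the class test recovered 51.1% of genes with a log2 difference of 1 and 99.1% of those with 2. For all simulations the changed genes were ones of higher counts, spread was equal for all genes, and libraries differed only in size. The rates therefore do not cover genes of low counts or libraries as unlike as these. For 7 listed symbols no feature was matched. Some named genes are not reported here, though counts over lists and all genes include them. Sequences are from the RefSeq promoter table (GRCr8).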

Additional observations from a re-analysis of the deposited data

Results flagged for a closer look

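Of 61 measures tested over the 4 libraries, 6 had 1 library far from the other 3. The rule was Dixon's ratio of gap to range at its 95% critical value. For continuous values chance alone flags about 1 in 20, but that rate does not apply to levels that rest on a few UMIs. The member share of gated glutamate nuclei was lowest in female 2, at 12.1%. In members of female 2, Tcf7l2 was highest at 11.5 CPM, which is 3 UMIs, and Cbln4 lowest at 3.84 CPM, which is 1 UMI. In members of male 2, Kcnq5 was highest at 356 CPM, and Lmx1a at 2.61 CPM, which is 2 UMIs. In members of female 1, Ntn1 was highest at 26.4 CPM.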

How the results depend on the processing

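The 492 genes called between members and comparison nuclei became 253 with DESeq2, 873 with no filter on low counts (386 higher, 487 lower, against 273 and 219), 306 with no replicate block (library not blocked), 252 after thinning to 2000 UMIs, 204 with 4 or more UMIs of Sim1 and Foxb1, and 203 against comparison nuclei without Lmx1a or Lmx1b, the last added after seeing the data. Leaving out 1 library gave 119 (without male 1) to 920 (without female 2), with 266 without female 1 and 236 without male 2. The 4 sex calls became 42 with no filter and 0 of 5228 genes (150 at an unadjusted p under 0.05) with 4 or more UMIs of Sim1 and Foxb1 in edgeR, and 6 to 338 with 1 library left out; with the replicate number as a replicate block there were 6. The interaction had 26 calls with no filter and 0 to 152 with 1 library left out, and 0 with no replicate block. The female minus male share of gated glutamate nuclei was 1.70 points without female 2 and ranged from -10.3 to 1.70. Of 55 named genes tested, 25 kept their call in every alternative that tested them, 30 lost it in at least 1 and 0 reversed. The cause of these changes was not tested. The test of Foxb1 against Sim1 members and its alternatives were not run, for lack of nuclei, and the fit with all libraries whatever their number equals the one reported. Depth limits the values of Foxb1, which had 85 UMIs over all members.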
